A study of Homo sapiens with 12 samples.

Results

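Salinomycin changed 1517 genes in the same direction and by a similar amount in HMLE-Twist and in HMLE-pBp cells, of 11521 genes tested, and these genes are described here. A gene was counted when the mean of its responses in both lines passed the test and the smaller log2 response was at least 0.5 of the larger, with the same sign. The ratio compares estimates and is not a test. Tested in each line alone, 636 of the 1517 were called in both lines and 408 in neither. The responses of 118 of these genes were close-matched, meaning that the 95% interval of the difference between the lines also lay wholly inside that range. All 12 libraries of the study entered, in 4 groups of 3 biological replicates. HMLE cells are an immortalised line of human mammary epithelial cells. The HMLE-Twist line carries TWIST1, a transcription factor, is labelled as the EMT phenotype (epithelial to mesenchymal transition) and is 1 line per the labels. HMLE-pBp, its counterpart with the control vector, is labelled nonEMT. Each line was kept for 24 hours with 0.2 uM salinomycin, a potassium ionophore, or with DMSO as the mock, in HMLE medium, and messenger RNA was sequenced.

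Newly made secretory proteins fold in the endoplasmic reticulum (ER), leave it in vesicles coated by COPII, and reach the Golgi apparatus, where golgins and tethering complexes capture incoming vesicles. The COPI coat, built on small ARF GTPases, carries escaped ER residents back, and KDEL receptors catch those that end in a KDEL-type signal. Stress in these compartments is known to be read by sensors such as PERK, IRE1 and ATF6 and by membrane-bound factors of the CREB3 family, while shortage of amino acids and PERK signalling both act through ATF4. In mammary epithelial cells salinomycin is known for its toxicity to cells that have passed through an epithelial to mesenchymal transition, and the responses of both lines were compared gene by gene.

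The deposited values had first to be brought to 1 scale, FPKM (fragments per kilobase of gene length, scaled to the depth of the library), since mock and salinomycin libraries were deposited in different units. Whole reads were recovered for each gene, with 17892000 to 26706467 reads per library. The kind of table and the treatment cannot be told apart, because every mock library came from 1 kind and every salinomycin library from the other, so an error of a gene in 1 kind would look like a response shared by both lines. For this reason 2985 genes whose recovered length did not settle their reads were left out. The labelled lines carried their markers: CDH1 lay between 0.0316 and 0.0994 FPKM in HMLE-Twist mock and between 166 and 176 FPKM in HMLE-pBp mock, and TWIST1 between 521 and 1143 and between 2.54 and 2.61 FPKM. Salinomycin left no detectable mean effect on CDH1 (0.05, adjusted p = 0.496 by limma) or on TWIST1 (0.12, adjusted p = 0.64 by limma). Each of these means includes 1 line in which the gene was low, so it can understate a response of the other line. After salinomycin, CDH1 lay between 174 and 192 FPKM in HMLE-pBp, and TWIST1 between 728 and 1223 FPKM in HMLE-Twist. Summed over 10 leukocyte markers, levels lay between 23.7 and 28.0 FPKM in HMLE-Twist mock, 38.5 and 43.1 with salinomycin, 32.8 and 45.2 in the mock of HMLE-pBp and 22.6 and 31.9 with salinomycin there. Summed over 7 endothelial markers they lay between 4.97 and 5.74, 9.74 and 12.1, 1.51 and 1.73, and 2.20 and 2.89 FPKM in the same order. The leukocyte sum went opposite ways in the lines and the endothelial sum was higher after salinomycin in both, and their part in the results was not tested. Of the leukocyte markers, CD3E was at 0 in 11 of 12 libraries and PTPRC in 8, while CD14 was at 0 in none and lay between 19.6 and 29.9 FPKM in HMLE-pBp mock and between 6.45 and 15.7 FPKM after salinomycin. In HMLE-Twist, CD14 lay between 0.663 and 1.85 FPKM in the mock and between 1.23 and 1.29 FPKM after salinomycin. Of the endothelial markers, CDH5 was at 0 in 10 libraries, and KDR and TEK were detected at up to 1.18 and 0.586 FPKM. The markers named here were thus the smaller part of either sum in HMLE-Twist. Those that held the rest of the sums are not named.

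Over both lines, 1711 genes (14.9%) were higher and 1788 (15.5%) lower after salinomycin by the mean effect. The shared response held 818 rises (7.1% of the genes tested) and 699 falls (6.07%). Rises were larger than falls: 57 shared rises but only 2 shared falls (BAG2 and CPA4, chosen after their values were seen) reached 2-fold, and the median was 0.42 for rises and -0.33 for falls on the log2(FPKM + 1) scale, which is used for all responses here and understates the change of genes with low levels. Among close-matched genes the imbalance was wider, with 98 rises, 36 of them at least 2-fold, and 20 falls, none of them 2-fold. The close-matched range widens with the mean effect, so large effects meet it more easily, and the smallest was 0.39 in size in either direction. The wider imbalance is therefore not a result apart from the smaller size of falls. Every salinomycin library stood above every mock library within each line for 888 genes (7.71%) and below for 728 (6.32%). All 98 close-matched rises and all 20 close-matched falls were among these genes. For the largest of them described below, this was also a condition of being named, so it adds no separate support. The other 1982 genes called for the mean effect did not meet the rule for similar size, and 352 of them had opposite signs in the lines. Just inside that rule among genes of at least 2-fold lay ADM2, ASS1 and SLC2A3, with a smaller response of 0.51, 0.52 and 0.52 of the larger, and just outside lay BET1L and TMEM64 at 0.49 each and SLC6A9 at 0.49. With the replicate number within each line as a block, the mean effect was called for 5270 genes, 2836 of them lower, and 220 genes were close-matched. Without HMLE-Twist salinomycin replicate 2, 75 were close-matched.

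Tested singly, HMLE-Twist gave 1469 rises (12.8%) and 1560 falls (13.5%), and HMLE-pBp 1104 rises (9.58%) and 1067 falls (9.26%). In both lines singly and with the same sign, 453 genes rose and 240 fell, and 131 were called with opposite signs. Of 99 genes that rose at least 2-fold in HMLE-pBp, 78 were also higher in HMLE-Twist and 63 of these were called there, with a median of 0.85 against 1.25 in HMLE-pBp. Of 42 genes that fell at least 2-fold in HMLE-pBp, 19 were also lower in HMLE-Twist and 5 were called. Of the genes that reached 2-fold in HMLE-Twist, 147 of 189 rises and 32 of 44 falls had the same sign in HMLE-pBp, and 85 and 8 were called there. Across all genes tested, which are not independent replicates and share the size factors and gene lengths, the responses of the lines had a Pearson r of 0.25. The block within each line raised the single-line counts to 4664 genes in HMLE-Twist and 4201 in HMLE-pBp. Without mock replicate 2, mock replicate 3 or salinomycin replicate 1 of HMLE-pBp, the count of that line fell from 2171 to 1279, 1083 and 1161.

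**Figure D1:**
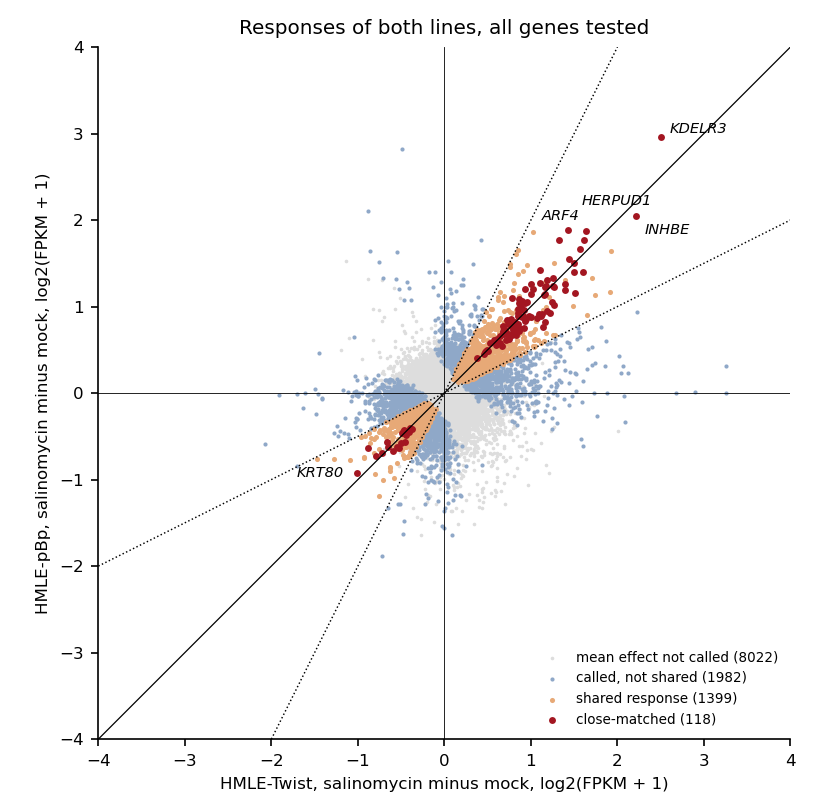
Response of HMLE-Twist (horizontal axis) and of HMLE-pBp (vertical axis) to salinomycin for each gene tested, as differences in log2(FPKM + 1). The solid line marks equal responses and the dotted lines a smaller response of 0.5 of the larger. Close-matched genes lie along the solid line and reach farther among rises (KDELR3) than among falls (KRT80), and 1 gene lies outside the axes.

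The largest close-matched rise was that of KDELR3, a receptor that returns KDEL-bearing ER proteins from the Golgi apparatus. In HMLE-Twist it stood at 26.9, 28.1 and 22.7 FPKM in the mock libraries and at 152, 159 and 143 FPKM after salinomycin. In HMLE-pBp the mock libraries held 8.90, 9.71 and 8.37 FPKM and the salinomycin libraries 90.0, 80.1 and 61.9 FPKM. The groups did not overlap in either line, although HMLE-pBp started from a lower level, and the mean effect was 2.73 ± 0.09 (log2, SE; adjusted p = 1.13e-08 by limma). The difference between the lines, HMLE-Twist minus HMLE-pBp, was -0.45 with a 95% interval of -0.84 to -0.06. KDELR2, a second receptor of the family, rose less, by 0.83 ± 0.06 (adjusted p = 3.94e-06 by limma). Its levels were 150.3, 123 and 125 FPKM in HMLE-Twist mock, 275, 272 and 272 after salinomycin, 212, 222 and 228 in the mock of HMLE-pBp and 322, 373 and 325 after salinomycin, again without overlap. KDELR1 did not belong to the shared response: it changed by 0.80 in HMLE-Twist and by 0.15 in HMLE-pBp, and the difference passed the test (adjusted p = 0.0111 by limma). Of the p24 adaptors, which sort cargo into coated vesicles, TMED2 rose by 0.42 and TMED5 fell by 0.39 in the mean, both as shared responses, while TMED3 differed between the lines (1.01 and -0.11). Of the 11 members tested, 4 were shared rises and 1 a shared fall, beside 7.1% and 6.07% of all genes tested.

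Genes of the COPII coat and of exit from the ER were mostly higher after salinomycin. Of 45 tested, 29 were called higher and 3 lower, 19 were shared rises and 8 were close-matched rises, and the median mean effect was 0.53 beside -0.02 over all genes tested. The shares of all genes were 14.9% higher, 15.5% lower, 7.1% shared rises and 0.85% close-matched rises. SEC24D, a cargo-binding subunit of the coat, was at 32.4, 25.8 and 23.0 FPKM in HMLE-Twist mock and at 71.8, 70.2 and 63.9 FPKM after salinomycin. In HMLE-pBp it went from 10.9, 9.98 and 9.14 FPKM to 44.5, 36.9 and 29.5 FPKM. Every salinomycin library lay above every mock library of its line, and the mean rise was 1.55 ± 0.10 (adjusted p = 1.86e-06 by limma). SEC13, part of the outer cage, rose by 1.15 ± 0.08, with 76.0, 87.6 and 83.8 FPKM in HMLE-Twist mock, 206, 194 and 188 after salinomycin, 50.9, 44.7 and 41.5 in the mock of HMLE-pBp and 111, 93.5 and 83.5 after salinomycin. YIF1A and YIPF2, membrane proteins that cycle between ER and Golgi apparatus, rose by 1.44 and 1.25, without meeting the close-matched rule. The inner-coat genes SEC23A and SEC24A, the outer-cage gene SEC31A and the exit-site scaffold SEC16A, all 4 named after their values were seen, were close-matched at 0.95, 1.15, 0.99 and 0.99. The exit-site gene SEC16B differed between the lines (1.07 in HMLE-Twist, 0.14 in HMLE-pBp; adjusted p of the difference = 0.00162 by limma). The single shared fall of the list was YIPF1, named after its value was seen. With only genes whose length lay within 5% of the reference, 15 of 27 members were called higher.

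In the COPI coat and ARF cycle, 16 of 22 tested genes were higher, none was lower, 12 were shared rises and 7 were close-matched, with a median of 0.60. Among all genes tested, 14.9% were higher, 15.5% lower, 7.1% shared rises and 0.85% close-matched rises. ARF4, a small GTPase that recruits the coat, was at 180.3, 158 and 154 FPKM in HMLE-Twist mock and at 454, 470.4 and 403 FPKM after salinomycin. HMLE-pBp held 118, 118 and 111 FPKM in the mock and 594, 391 and 339 FPKM after salinomycin, 1 of these libraries standing well above the others. ARF4 rose by 1.65 ± 0.11 in the mean (adjusted p = 2.1e-06 by limma), and the groups of each line did not overlap. The coat subunits COPA and COPG1 rose by 1.25 ± 0.09 and 1.2 ± 0.05. COPG1 was measured with little spread, at 75.1, 78.2 and 76.5 FPKM in HMLE-Twist mock, 173, 176 and 171 after salinomycin, 42.3, 40.02 and 40.8 in the mock of HMLE-pBp and 106, 98.0 and 89.1 after salinomycin, and the difference of its responses was -0.06 (95% interval -0.28 to 0.16). COPB1 and COPB2 (named after their values were seen) were close-matched at 0.72 and 0.94. Of the activators of ARF hydrolysis, ARFGAP3 gave 0.80 in HMLE-Twist and 1.27 in HMLE-pBp and met the rule of similar size, while ARFGAP1 gave 1.42 and 0.59 and did not. Of its relatives, ARF1 was a shared rise of 0.49 and ARF3, ARF5 and ARF6 (values 0.09, -0.04 and 0.19) were not called, all 4 named after their values were seen.

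Structural proteins of the Golgi apparatus followed, with 20 of 26 tested genes higher, none lower, 16 shared rises, 9 close-matched rises and a median of 0.49. Beside these counts, all genes tested gave 14.9% higher, 15.5% lower, 7.1% shared rises and 0.85% close-matched rises. GOLGA3, a golgin, had almost the same level in both lines without salinomycin, 10.7, 10.7 and 12.3 FPKM in HMLE-Twist and 10.7, 11.1 and 11 FPKM in HMLE-pBp. After salinomycin it stood at 33.5, 33.5 and 34.0 FPKM and 25.8, 26.1 and 25.1 FPKM. The replicates of each group lay within a few FPKM of each other and the groups did not overlap, for a mean rise of 1.34 ± 0.05 (adjusted p = 1.7e-08 by limma). Its rise was still larger in HMLE-Twist, by 0.35 (adjusted p = 0.0425 by limma), inside the close-matched range. GOLGA2, the cis-Golgi tether GM130, rose by 1.29 ± 0.05, COG6, a subunit of the COG tethering complex, by 1.21 ± 0.11, and GOLT1B, a Golgi transport protein, by 1.01 ± 0.10. GOLGA4, a golgin of the trans side, differed between the lines (0.82 and 0.16). The list of Golgi glycosylation enzymes and sugar transporters gave counts near those of all genes tested. Of 38 tested, 6 were higher and 6 lower (all genes 14.9% and 15.5%), 2 were shared rises and 2 shared falls (all genes 7.1% and 6.07%), none was close-matched, and the median was -0.05. SLC35A2, the UDP-galactose transporter (0.97), and UAP1, which makes UDP-GlcNAc (0.44), were the shared rises, and ST3GAL4 and SLC35A1 the shared falls. With the block within each line, 11 of these 38 genes were lower.

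**Figure D2:**
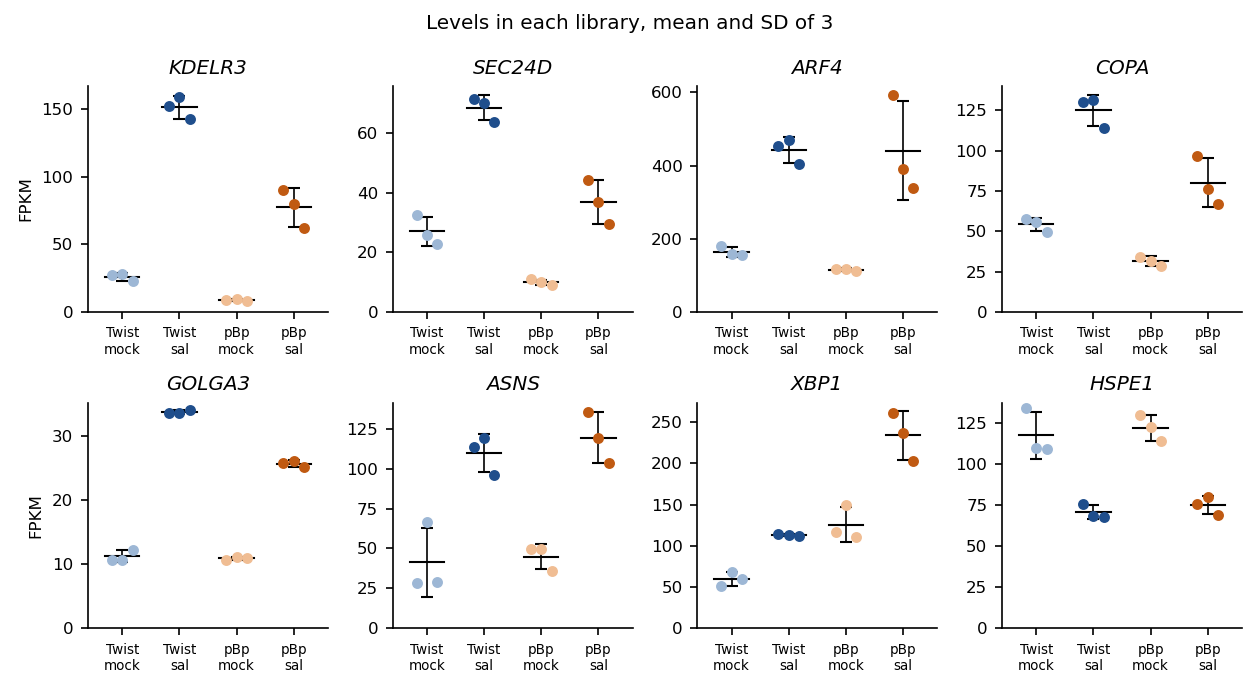
Level in FPKM of 8 genes in each of the 12 libraries, by line and treatment, with bars for the mean and SD of 3 libraries and every axis starting at 0. For each gene the salinomycin libraries (sal) lie apart from the mock libraries of the same line, above for 7 genes and below for HSPE1.

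Counted as 1 group, the 4 lists of KDEL receptors and adaptors, COPII, COPI and Golgi structure held 104 tested genes. Of these, 51 were shared rises (49.0%, beside 7.1% of all genes tested) and 25 close-matched rises (24.0%, beside 0.85%). No member was lost to the filter on low levels, while TMED8, 5 COPII genes (SAR1A, CTAGE5, TRAPPC5, YIPF4 and CNIH4) and COPG2 were left out because their reads were not settled. These 25 were 25.5% of all close-matched rises, 15 more were in other lists and 58 in none. Median responses of the 104 genes were 0.57 for HMLE-Twist and 0.42 for HMLE-pBp. Responses that differed between the lines were found for 18 of the 104, beside 13.6% of all genes tested.

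Since genes of these lists moved together, the sequence around their start sites was searched, in windows of 300 bases from RefSeq (GRCh38.p14), 250 before and 50 after the start. A window was found for 9151 of the 11521 genes tested and for 98 of the 118 close-matched genes. The Golgi apparatus stress response element (GASE, ACGTGGC) and the unfolded protein response element (UPRE, TGACGTGG) share the core ACGTGG, so that TGACGTGGC holds both, and each was searched on both strands. The windows below show where these letters lie in genes of each step of transport, and those of HERPUD1, AARS and HSPA5 show elements of ER and amino acid stress. They are printed 5′ to 3′ along the gene, with matches in capitals, and end at or before the base that precedes the start.
KDELR3 (chr22:38467986-38468095, plus strand): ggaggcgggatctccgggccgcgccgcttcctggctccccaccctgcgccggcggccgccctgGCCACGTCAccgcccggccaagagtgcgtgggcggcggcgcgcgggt
SEC24A (chr5:134648585-134648764, plus strand): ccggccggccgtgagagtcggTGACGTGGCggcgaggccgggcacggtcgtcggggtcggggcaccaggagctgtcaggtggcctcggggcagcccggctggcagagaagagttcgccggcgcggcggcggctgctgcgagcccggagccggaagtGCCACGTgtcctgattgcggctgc
SEC31A (chr4:82900570-82900679, minus strand): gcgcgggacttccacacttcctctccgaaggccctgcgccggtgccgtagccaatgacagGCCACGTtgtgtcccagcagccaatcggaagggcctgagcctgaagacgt
COPB2 (chr3:139389741-139389860, minus strand): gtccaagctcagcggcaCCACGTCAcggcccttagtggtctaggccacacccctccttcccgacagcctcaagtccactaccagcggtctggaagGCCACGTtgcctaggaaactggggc
TMED2 (chr12:123584402-123584511, plus strand): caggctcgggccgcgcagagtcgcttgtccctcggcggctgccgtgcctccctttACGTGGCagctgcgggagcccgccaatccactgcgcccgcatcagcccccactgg
GOLGA5 (chr14:92794085-92794184, plus strand): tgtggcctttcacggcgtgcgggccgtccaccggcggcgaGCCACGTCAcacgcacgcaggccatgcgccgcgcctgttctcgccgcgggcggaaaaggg
HERPUD1 (chr16:56931942-56932061, plus strand): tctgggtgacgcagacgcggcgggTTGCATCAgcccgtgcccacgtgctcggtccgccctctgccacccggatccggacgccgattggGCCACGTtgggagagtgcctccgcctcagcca
AARS (chr16:70289637-70289736, minus strand): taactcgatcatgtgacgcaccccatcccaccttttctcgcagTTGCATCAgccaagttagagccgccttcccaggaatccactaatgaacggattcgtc
HSPA5 (chr9:125241344-125241453, minus strand): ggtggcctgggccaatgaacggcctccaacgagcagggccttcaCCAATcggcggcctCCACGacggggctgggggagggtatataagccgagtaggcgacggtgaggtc
In the first 6 windows the capitals are GASE and UPRE matches, which overlap in SEC24A as TGACGTGGC and in KDELR3 and GOLGA5 as GCCACGTCA, its reverse complement. In HERPUD1 they are the amino acid response element CARE (TTGCATCA), bound by ATF4 with CHOP, followed by a GASE, and in AARS a CARE alone. HSPA5 shows the ER stress response element (ERSE), CCAAT and CCACG with 9 bases between them.

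A GASE was in 27 of 82 windows of close-matched rises (32.9%), in 82 of 665 of all shared rises (12.3%), in 11 of 573 of shared falls (1.92%), in 407 of 9151 of all genes tested (4.45%) and in 902 of all 27305 windows (3.30%). A UPRE was in 9 windows of close-matched rises (11%), in 28 of shared rises (4.21%), in 1 of shared falls and in 0.918% of all genes tested. Among shared rises of the 4 transport and Golgi lists, 19 of 47 windows held a GASE (40.4%) and 12 a UPRE (25.5%), beside 7 and 1 of 43 windows of the other tested genes of these lists. The CARE was in 5 of 24 windows of shared rises of the ATF4 and synthetase lists (20.8%) and in 0.503% of all genes tested, and none of these 24 windows held a GASE. The CCAAT box, for comparison, was in 39.0% of windows of close-matched rises, 37.0% of all genes tested, 5 of 16 of close-matched falls (31.2%) and 14 of 24 of shared rises of the ATF4 and synthetase lists (58.3%). The other motifs searched, on both strands, were the E-box CACGTG (13 of 82 windows of close-matched rises, beside 10.3% of all genes tested), its extension in the CLEAR element TCACGTGA (1 of 82, beside 2.06%), the cyclic AMP element TGACGTCA (1 of 82, beside 3.48%), the heat shock element (1 of 82, beside 0.273%) and the ERSE, which holds a CCAAT box (2 of 82, beside 0.131%). A match is a string of letters and not a measured site, and these shares were not tested.

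**Figure D3:**
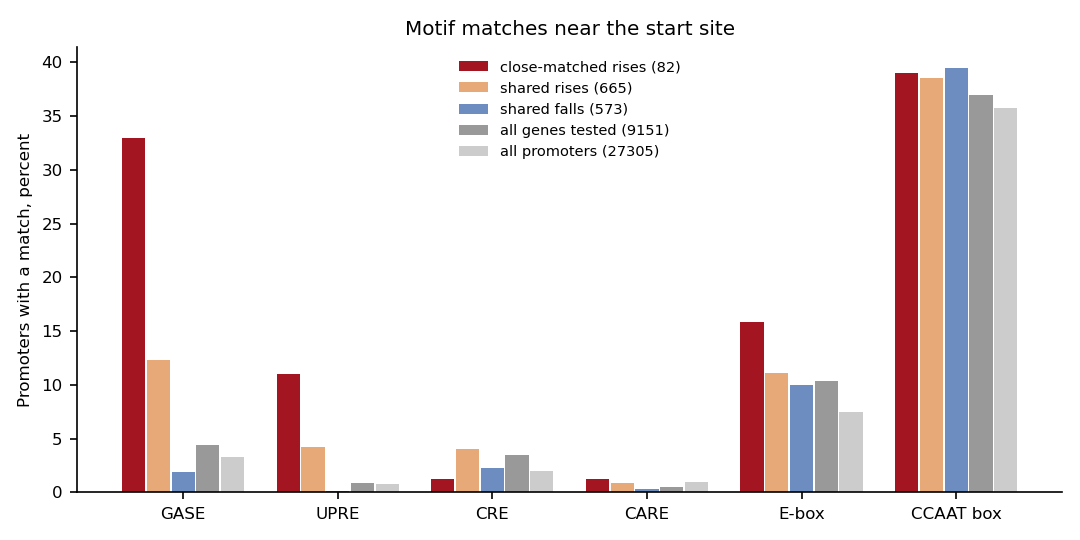
Share of promoter windows (percent, vertical axis) that hold each motif, for close-matched rises, shared rises, shared falls, all genes tested and all windows, with the number of windows in brackets. GASE stands at 32.9% in close-matched rises and 4.45% in all genes tested, while the CCAAT box lies between 35.7% and 39.4% in the 5 sets.

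Most ATF4 and CHOP targets were shared rises; they are genes of the integrated stress response, which adapts protein synthesis and amino acid supply. Of 30 tested, 26 were higher and 1 lower, 23 were shared rises, 5 were close-matched, and the median of 0.88 was alike in the lines (0.90 in each). The shares over all genes tested were 14.9% higher, 15.5% lower, 7.1% shared rises and 0.85% close-matched rises. INHBE, a subunit of activins, was at 0.295, 1.31 and 0.573 FPKM in HMLE-Twist mock and 5.6, 8.77 and 6.27 FPKM after salinomycin, and at 0.884, 1.16 and 0.651 and 7.93, 6.69 and 5.83 FPKM in HMLE-pBp. These levels were low, the groups did not overlap, which held for every close-matched gene, and the mean rise was 2.13 ± 0.15 (adjusted p = 2.1e-06 by limma). ASNS, which makes asparagine, stood at 28.4, 66.3 and 29.3 FPKM in HMLE-Twist mock, 114, 119 and 96.2 after salinomycin, 49.6, 49.4 and 35.8 in the mock of HMLE-pBp and 136, 119 and 104 after salinomycin. Replicate 2 of HMLE-Twist mock was higher than the other 2, yet below all 3 salinomycin libraries, and the mean rise was 1.45 ± 0.19. CBS, an enzyme of cysteine synthesis, rose by 1.5 in HMLE-Twist and 1.5 in HMLE-pBp, and TRIB3, an inhibitor of ATF4 itself, by 1.40 and 1.26. ALDH1L2, a mitochondrial folate enzyme outside the list, was close-matched too, at 1.26 and 1.23. The other close-matched member was VLDLR, a lipoprotein receptor, at 1.27. Its recovered length was 0.40 of the reference, and mock reads too low by a whole factor would make such a rise too large.

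The factors of this branch rose as well. DDIT3, which encodes CHOP, went from 12.8, 25.2 and 21.3 to 34.6, 49.9 and 36.4 FPKM in HMLE-Twist and from 8.66, 7.08 and 5.92 to 55.4, 22.6 and 18.4 FPKM in HMLE-pBp. PPP1R15A, which restores translation, went from 10.5, 11.5 and 12.6 to 40.1, 38.3 and 41.4 FPKM and from 9.79, 7.31 and 7.59 to 47.2, 15 and 15.1 FPKM. In both genes replicate 1 of HMLE-pBp salinomycin was far above replicates 2 and 3, and the intervals of their differences were wide (-1.90 to 0.23 and -0.62 to 1.37), so that neither was close-matched. Their mean effects were 1.44 ± 0.24 and 1.52 ± 0.23 (adjusted p = 0.00108 and 0.000485 by limma). ATF4 itself, much of whose control is known to be at translation, rose by 0.60 ± 0.10 in its messenger RNA. PYCR1, an enzyme of proline synthesis, rose more in HMLE-Twist (2.23) than in HMLE-pBp (0.93; adjusted p of the difference = 0.00996 by limma).

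Aminoacyl-tRNA synthetases, which load amino acids onto tRNAs, held 19 tested genes. Of these 9 were higher, none was lower and 8 were shared rises, with a median of 0.21. All genes tested gave 14.9% higher, 15.5% lower and 7.1% shared rises. GARS rose by 0.87 ± 0.11, CARS by 0.53, AARS by 0.53 and IARS by 0.46, while MARS had opposite signs (0.44 in HMLE-Twist and -0.36 in HMLE-pBp). AARS, whose CARE is shown above, was at 76.4, 111 and 80.8 FPKM in HMLE-Twist mock, 127, 143 and 118 after salinomycin, 59.0, 58.4 and 50.2 in the mock of HMLE-pBp and 90.2, 79.0 and 73.6 after salinomycin, without overlap within a line. Among amino acid transporters, the responses of 11 of 16 differed between the lines (13.6% of all genes tested), and 2 were shared rises. These were SLC1A4, a carrier of alanine, serine and cysteine, at 1.15 ± 0.15 with 1.16 in HMLE-Twist and 1.15 in HMLE-pBp, and SLC38A2, a glutamine carrier, at 0.31.

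Within the list of ER chaperones and disulfide isomerases, the largest close-matched rise was that of a sensor kinase. Over all genes tested, 14.9% were higher, 15.5% lower, 7.1% shared rises and 0.85% close-matched rises. Of 37 genes of the chaperone list, 16 were higher and 1 lower, 8 were shared rises and 3 close-matched rises, with a median of 0.21. The 3 were EIF2AK3, which encodes the sensor kinase PERK (1.25 ± 0.08), CALU, the calcium-binding protein calumenin (0.93 ± 0.07), and XBP1, the transcription factor activated by IRE1 (0.90 ± 0.09). XBP1 was at 51.4, 68.7 and 59.7 FPKM in HMLE-Twist mock, 114, 113 and 111 after salinomycin, 117, 149.8 and 111 in the mock of HMLE-pBp and 262, 237 and 203 after salinomycin. Although HMLE-pBp started near the level that HMLE-Twist reached, the responses differed by only 0.01 (95% interval -0.39 to 0.42). HSPA5, the chaperone BiP, went from 386, 319.9 and 371 to 477, 518 and 525 FPKM in HMLE-Twist and from 665, 844 and 863 to 1064, 1106 and 946 FPKM in HMLE-pBp, a shared rise of 0.45 ± 0.08 (adjusted p = 0.00118 by limma). HSP90B1, the ER chaperone GRP94, did not pass (0.12, 95% interval -0.02 to 0.27, adjusted p = 0.184 by limma). P4HB, a disulfide isomerase, was a shared rise of 0.71, and RCN3, a calcium-binding protein, differed most between the lines (3.26 and 0.31).

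HERPUD1, a membrane component of ER-associated degradation, had the third largest close-matched rise, 1.76 ± 0.09 (adjusted p = 4.11e-07 by limma). It was at 38.0, 42.4 and 36.0 FPKM in HMLE-Twist mock, 123, 129.6 and 116 after salinomycin, 51.2, 63.3 and 52.7 in the mock of HMLE-pBp and 256, 199 and 172 after salinomycin, with no overlap, and its recovered length was 0.65 of the reference. Of 22 genes of this list, 9 were higher and 2 lower, 7 were shared rises and 1 a shared fall, with a median of 0.10. The shares of all genes tested were 14.9% higher, 15.5% lower, 7.1% shared rises and 6.07% shared falls. ERLEC1, a lectin (0.84), VIMP, a selenoprotein of the export complex (0.74), and EDEM1, a mannosidase-like protein (0.52), were shared rises, and SYVN1, the ubiquitin ligase HRD1, rose more in HMLE-Twist (1.30) than in HMLE-pBp (0.45). CREB3, a transcription factor that is cut from its membrane anchor in the Golgi apparatus, was at 30.8, 36.5 and 32.8 FPKM in HMLE-Twist mock, 68.5, 66.0 and 59.7 after salinomycin, 36.4, 39.6 and 39.2 in the mock of HMLE-pBp and 109.7, 87.0 and 76.1 after salinomycin. Its rise of 1.07 ± 0.08 was close-matched, whereas CREB3L1, of the same family, differed between the lines (-0.69 in HMLE-Twist and -0.01 in HMLE-pBp; adjusted p of the difference = 0.0208 by limma). Of the 13 genes of that list 4 were higher and 2 lower, 2 were shared rises (CREB3 and ETS1) and 1, the chaperonin HSPD1, was a shared fall, with a median of 0.10. Its counts of lower genes and of shared falls were near the shares of all genes given above.

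**Figure D4:**
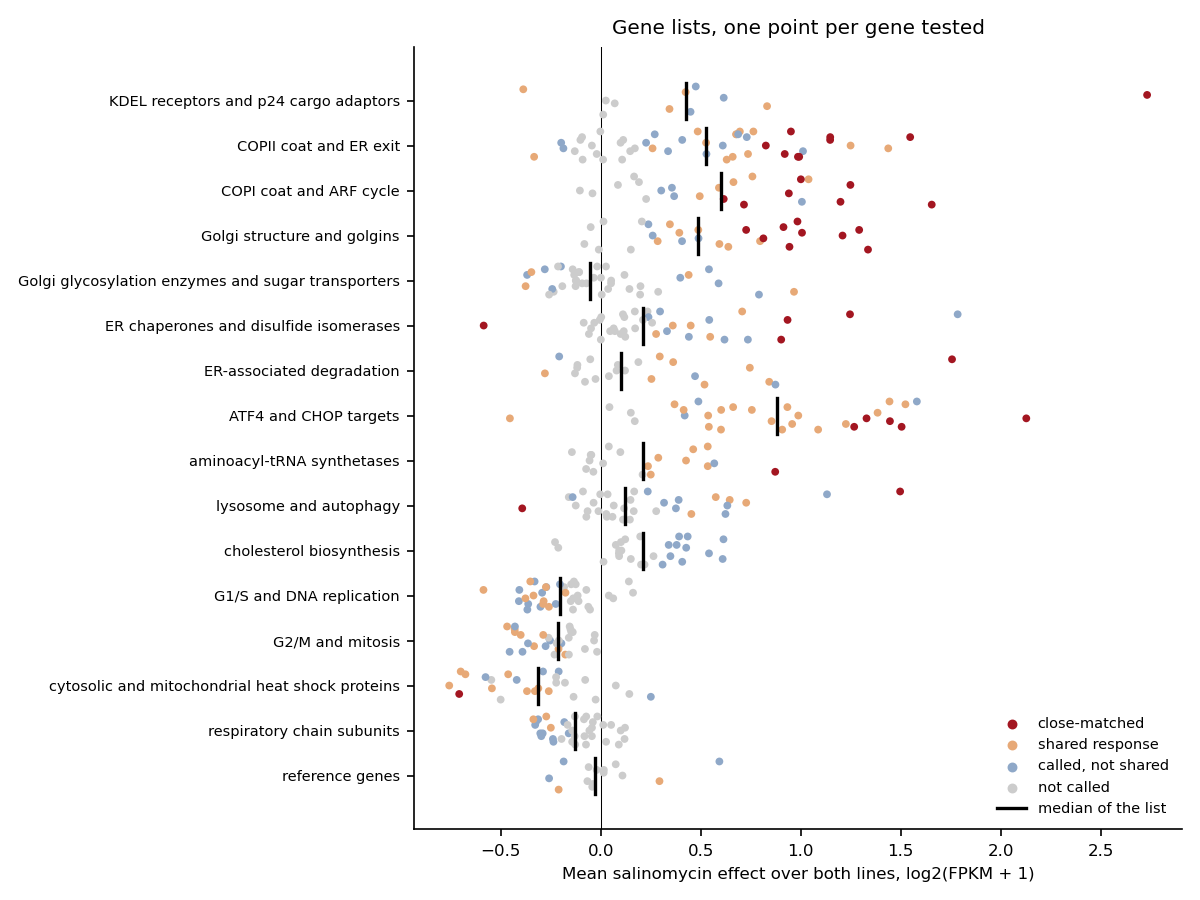
Mean effect of salinomycin over both lines, log2(FPKM + 1), for each gene tested in 16 lists, with a bar at the median of each list. The KDEL, COPII, COPI, Golgi structure and ATF4 lists have medians between 0.42 and 0.88, whereas no gene of the cholesterol list is a shared response and the heat shock list has a median of -0.31.

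Several close-matched rises lay outside the secretory and ATF4 groups. LOX, which cross-links collagen, stood at 8.03, 8.49 and 6.92 FPKM in HMLE-Twist mock, 26.8, 27.0 and 24.2 after salinomycin, 8.62, 8.68 and 9.11 in the mock of HMLE-pBp and 38.6, 32.3 and 27.5 after salinomycin. Its starting levels were alike in the lines, and it rose by 1.70 ± 0.08 (adjusted p = 1.55e-07 by limma). MAGED2 and MAGEH1, of the MAGE family, rose by 1.62 ± 0.12 and 1.5 ± 0.10. WIPI1, a lipid-binding protein of early autophagosomes, had very unequal starting levels, 9.75, 10.5 and 9 FPKM in HMLE-Twist mock and 1.81, 1.37 and 1.67 in HMLE-pBp mock, and went to 28.9, 28.1 and 27.6 and 8.41, 6.10 and 5.67 FPKM. Its responses on the log2(FPKM + 1) scale were 1.44 and 1.55, and the added 1 lowers the response of HMLE-pBp more, since its levels were lower. GFPT1, which opens the hexosamine pathway, rose by 1.29 ± 0.10, and FTH1, the ferritin heavy chain that stores iron, by 0.65 ± 0.09. In the list of lysosome and autophagy genes 12 of 35 were higher and 2 lower, and 5 were shared rises (median 0.12), ULK1 (0.73), MAP1LC3B (0.64) and NPC1 (0.57) among them. Beside 14.9% of all genes higher and 7.1% shared rises, iron genes had 6 of 13 higher and 1 shared rise, hypoxia and glycolysis genes 13 of 30 higher and 5 shared rises, with VEGFA at 0.93, and p53 targets 6 of 19 higher and 3 shared rises, with CDKN1A at 0.68.

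Cytosolic and mitochondrial heat shock chaperones were mostly lower. Of 25 heat shock proteins tested, 14 were lower and 1 higher, 10 were shared falls and 1 was close-matched, with a median of -0.31 (-0.34 in HMLE-Twist and -0.35 in HMLE-pBp). Among all genes tested, 15.5% were lower, 14.9% higher and 6.07% shared falls. HSPE1, the mitochondrial co-chaperonin, was at 134, 109.6 and 109 FPKM in HMLE-Twist mock, 75.8, 68.3 and 68.0 after salinomycin, 129.9, 122 and 114 in the mock of HMLE-pBp and 75.7, 80.1 and 69.2 after salinomycin. The groups did not overlap, starting levels were alike and the fall was close-matched (-0.71 ± 0.07; adjusted p = 2.5e-05 by limma). HSP90AA1, the inducible cytosolic HSP90, went from 1096, 951 and 1048 to 593, 595 and 646 FPKM in HMLE-Twist and from 411, 465 and 499 to 231, 344 and 310.3 FPKM in HMLE-pBp, and fell by 0.70 ± 0.09. FKBP4, an HSP90 co-chaperone, and HSPB1, a small heat shock protein, fell by 0.68 and 0.76, and HSPD1, partner of HSPE1, by 0.46. DNAJB4 went opposite ways (-0.75 and 0.48). With only genes whose length lay within 5% of the reference, 9 of 13 were lower.

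Among close-matched falls, KRT80, a keratin of the epithelial cytoskeleton, came first, at 5.81, 4.93 and 4.85 FPKM in HMLE-Twist mock, 2.32, 1.99 and 1.93 after salinomycin, 10.7, 8.26 and 10.2 in the mock of HMLE-pBp and 4.32, 4.73 and 4.85 after salinomycin. It fell by 0.97 ± 0.07 (adjusted p = 4.33e-06 by limma), without overlap in either line. CLU, the secreted chaperone clusterin, fell by 0.76 ± 0.08, TMEM14A, a membrane protein, by 0.76 ± 0.06, HSPA4L, of the HSP110 family, by 0.64 ± 0.09, and RCN2, an ER calcium-binding protein, by 0.59 ± 0.07. EBPL, TNFAIP8L1, IFIT5, the desaturase SCD5 and MRPL33, a protein of the mitochondrial ribosome, fell by 0.63, 0.61, 0.58, 0.54 and 0.51. Besides HSPE1, the remaining falls (WDR77, LSM2, ZDHHC3, EXOSC9, DNA2, SLC25A12, DHRS11, COA4 and ATP6V0E1) ranged from -0.39 to -0.48. Recovered lengths were more than 5% off the reference for 10 of these 20 falls, EBPL (1.054 times), WDR77 (0.93 of it), EXOSC9 (1.07 times), HSPA4L (0.29), RCN2 (0.35), ATP6V0E1 (0.62), COA4 (0.85), SLC25A12 (1.34 times), LSM2 (5.99 times) and ZDHHC3 (4.09 times). The same held for 28 of the 98 close-matched rises, 11 of them with a length under 0.9 of the reference, where mock reads too low by a whole factor would make a rise too large.

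**Figure D5:**
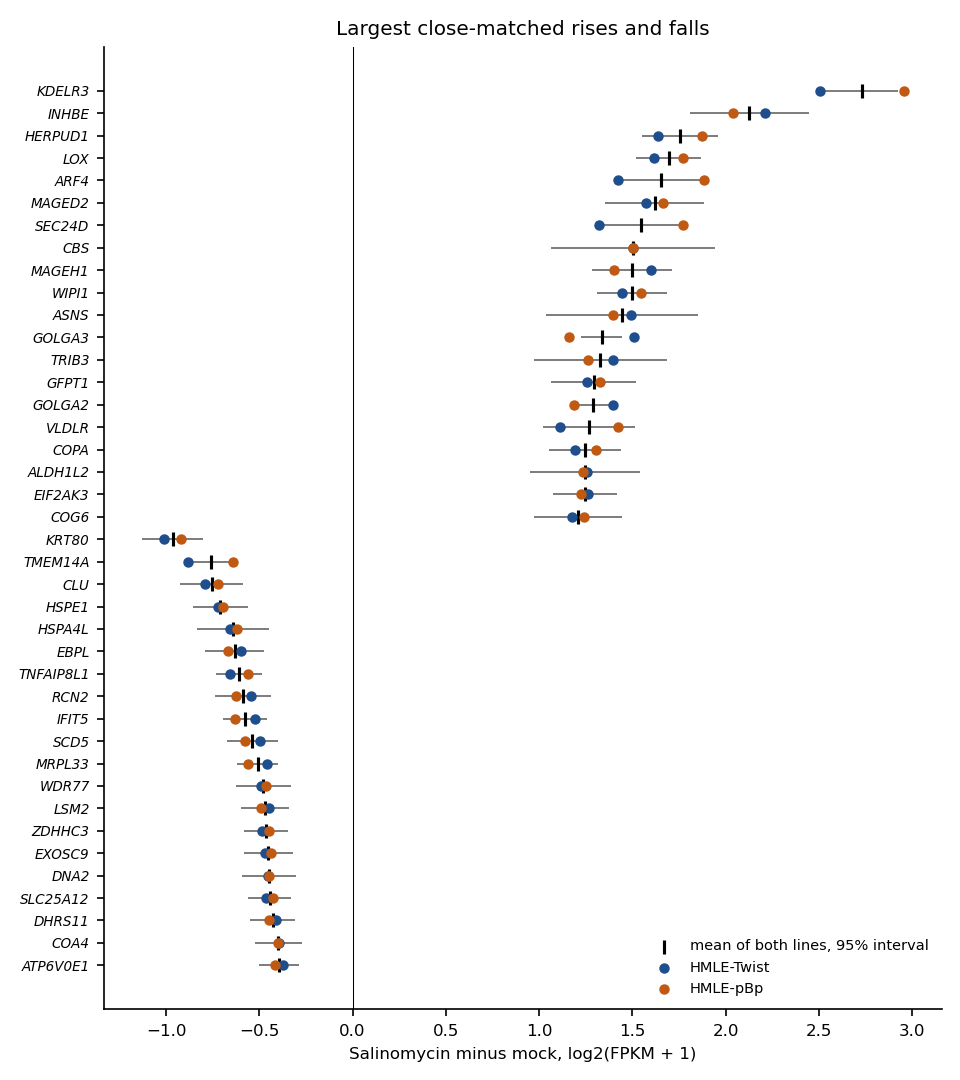
Response in HMLE-Twist and HMLE-pBp and their mean with its 95% interval, log2(FPKM + 1), for the 20 largest close-matched rises and the 20 close-matched falls. Points of both lines lie beside each other in each row, and the falls, from -0.97 (KRT80) to -0.39 (ATP6V0E1), are smaller than the rises, from 1.21 (COG6) to 2.73 (KDELR3).

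Part of the cell cycle genes were lower, by small amounts. Of 35 genes of G1/S and DNA replication, 19 were lower, none was higher and 9 were shared falls (median -0.20), and of 30 genes of G2/M and mitosis, 16 were lower, none was higher and 8 were shared falls (median -0.22). Tested singly, 13.5% of all genes were lower in HMLE-Twist and 9.26% in HMLE-pBp. Of the G2/M genes, 18 were lower in HMLE-Twist singly but 4, near the share of all genes, in HMLE-pBp (medians -0.32 and -0.11). For the G1/S genes the counts were 12 and 15 (medians -0.17 and -0.23). CCNE2, a cyclin of the G1/S transition, went from 28.2, 26.6 and 23.9 to 14.5, 15.7 and 15.4 FPKM in HMLE-Twist and from 9.59, 10.7 and 11.1 to 6.76, 8.04 and 7.84 FPKM in HMLE-pBp, and fell by 0.59 ± 0.06. CDC20, an activator of the anaphase-promoting complex, fell by 0.43 ± 0.06, MCM4, of the replicative helicase, by 0.34 ± 0.06, and TYMS, which makes thymidylate, by 0.35. MCM2 and CDK1 were called in the mean but not shared, with -0.15 and -0.71 in HMLE-Twist and -0.40 and -0.15 in HMLE-pBp. Beside 15.5% of all genes lower and 6.07% shared falls, respiratory chain subunits had 13 of 36 lower, none higher and 3 shared falls (median -0.13), and ribosome biogenesis genes 9 of 33 lower, 3 higher and 3 shared falls (median -0.14). In HMLE-Twist and HMLE-pBp singly, 12 and 2 respiratory chain subunits were lower, and 1 and 10 ribosome biogenesis genes, beside 13.5% and 9.26% of all genes. Ribosome biogenesis genes called higher singly were 6 in HMLE-Twist and 0 in HMLE-pBp (medians 0.10 and -0.29), beside 12.8% and 9.58% of all genes. The count of 9 ribosome biogenesis genes was 14 with the block within each line, 4 without HMLE-Twist salinomycin replicate 2, 5 without HMLE-pBp mock replicate 2 and 4 without HMLE-pBp mock replicate 3. In these bulk libraries, fewer cells in a phase and less RNA per cell cannot be told apart.

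The remaining lists are given beside 14.9% higher, 15.5% lower, 7.1% shared rises and 6.07% shared falls among all genes tested. In 22 of 26 genes of cholesterol biosynthesis the responses of the lines differed, and none was a shared response; HMGCS1, at an early step, gave -0.88 in HMLE-Twist against 2.10 in HMLE-pBp (adjusted p of the difference = 7.94e-05 by limma). Immediate early and ERK feedback genes had 14 of 22 higher but 3 shared rises, EGR1 (1.92 and 1.17), KLF6 (0.79) and ATF3 (0.75). NF-kB targets had 9 of 18 higher (16 with the block within each line) and 1 shared rise, RELA (0.44). Fatty acid genes had 4 of 14 higher and 3 lower, with a shared rise of ELOVL6 (0.45) and a shared fall of their regulator SREBF1 (-0.69). Epithelial markers had 4 of 31 higher, 6 lower (10 with the block within each line) and 2 shared falls, KRT14 (-0.41) and KRT7 (-0.32), and mesenchymal markers 6 of 32 higher (11 with that block), 6 lower and 3 shared rises, LOX, SPARC (0.50) and COL6A3 (0.45). In HMLE-Twist, KRT14 was near the added 1 and overlapped, at 1.12 to 1.99 FPKM in the mock and 0.677 to 1.47 after salinomycin. In HMLE-pBp it went from between 858 and 997 FPKM to between 604 and 707 FPKM. VIM was 0.43 in the mean and did not pass (adjusted p = 0.0528 by limma, and 0.00215 with the block within each line). Wnt targets held 1 shared fall, DKK1 (-0.86), NRF2 targets 1, GSR (-0.29), and small nucleolar RNA host genes none. Of 14 reference genes 2 were higher and 3 lower, with a median of -0.03. Over all genes the responses of the lines differed for 1572 (13.6%), or 3759 with the block within each line. That count was 855 without HMLE-Twist mock replicate 2, 769 and 781 without HMLE-Twist salinomycin replicates 1 and 3, 844 and 750 without HMLE-pBp mock replicates 2 and 3, and 1045 without HMLE-pBp salinomycin replicate 2.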

How the data were processed

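Per the labels' protocols, 750 ng of total RNA of each of 12 cultures was made into stranded messenger RNA libraries and sequenced on a NextSeq500 in 75 cycles from each end. The submitters' processing notes name DESeq2 1.1.0 and the build hg19, while aligner, counter and annotation were not given in the sources used here. As deposited, the authors provided FPKM values for the mock libraries and shrunken log2 values for the salinomycin libraries, in 4 tables of 26364 genes (26357 names alike). Per the labels the replicates are biological, with no statement of what their numbers share.

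Whole reads and gene lengths were recovered from the steps of the mock FPKM, and the log2 values were inverted to reads. Inverted values lay within 0.1 of a whole read for 98.6% of values in HMLE-Twist and 96.1% in HMLE-pBp. FPKM of all 12 libraries was then rebuilt with median-of-ratios factors. A missed whole factor in mock reads would give a false shared rise, so 2985 genes were left out, and 714 of these had more than 100 mock reads. A gene was left out where no whole length was found, where 2 times its length lay within 20% of a RefSeq length or 3 to 10 times within 5%, where up to 30 mock reads had no matching length, or where all mock values were 0. Tighter limits were set here once the responses of individual genes were known. Of 12657 genes with over 100 mock reads and a reference length, 63.8% were within 5% of it.

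Genes with at least 1 FPKM in 3 of 12 libraries (11521 of 15899) were fitted as log2(FPKM + 1), pseudocount 1, with limma 3.58.1 in R 4.3.3, with 4 group means and a mean-variance trend. The mean response, its difference between lines and each line's own response were tested 2-sided with Benjamini-Hochberg adjustment over all genes and a threshold of 0.05. Unless said otherwise, "called", "higher" and "lower" refer to the mean response.

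Members, lists and motifs were chosen with earlier results of these data known. Named genes are the 20 largest close-matched rises and falls whose libraries did not overlap, up to 4 shared members of each of 32 lists, and a fixed set of 22 genes. The member of each list that differed most between lines was added where that difference was called. Printed promoter windows were chosen after their matches were seen. Within each line, same-numbered mock and salinomycin libraries deviated together from their group means in all 6 pairs (r from 0.236 to 0.717), so a block by number within line was also fitted. On simulated data, 100% of 50 genes with a rise of 1 in both lines were called and 96% counted as shared. For a rise of 0.5, 98% were called and 94% shared. A rise of 1 in HMLE-Twist alone was called in 90% of 50 genes and shared in none. These simulated reads had the same added spread for every gene, no effect of replicate number and changes planted only above a set level. They entered the fit without recovery from either kind of table, so these shares do not measure errors of that step.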

Additional observations from a re-analysis of the deposited data

Results flagged for a closer look

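For 37 of the named genes the responses of the lines differed by limma's test of the difference itself (adjusted p from 1.98e-06 to 0.0437, Benjamini-Hochberg). Genes were also named for having the largest difference of their list where it passed this same test. The count of 37 therefore follows in part from the choice and is no result, and 13.6% of all genes tested differed. Each difference is given as the response of HMLE-Twist minus that of HMLE-pBp in log2(FPKM + 1). In secretory genes the differences were GOLGA3 (0.35), GOLGA4 (0.66), ARFGAP1 (0.83), ARFGAP3 (-0.47), KDELR1 (0.66), KDELR2 (0.42), SEC16B (0.93), SYVN1 (0.85), TMED3 (1.12), RCN3 (2.95), B4GALT5 (1.02) and CREB3L1 (-0.69). GOLGA3, KDELR2 and ARFGAP3 rose in both lines and still belonged to the shared response, as did EGR1 and SLC2A3 below. In genes of metabolism and transport of small molecules they were ACSS2 (-3.30), HMGCS1 (-2.98), ALDOC (-2.27), BNIP3L (-1.33), SLC2A3 (-0.77), SLC6A6 (1.71), STEAP3 (1.15), PYCR1 (1.29) and MARS (0.79). In signalling and stress genes they were MYC (2.11), IER3 (2.42), CXCL1 (2.44), EGR1 (0.75), CCND1 (1.22), TNFRSF10B (1.1) and OSGIN1 (0.98). In the remaining genes, which include cell cycle, matrix and reference genes, they were ACTB (-0.65), CDC25C (-0.67), CDK1 (-0.56), COL3A1 (-1.61), DNAJB4 (-1.23), FN1 (0.74), LAMB3 (1.38), RRP12 (0.98) and SNHG4 (1.5). A value above 0 means that the response was more positive in HMLE-Twist, and no cause was tested.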

How the results depend on the processing

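The kind of deposited table and the treatment cannot be told apart, levels rest on recovered reads, and p-values measure the spread between 3 cultures per group. The planned edgeR and DESeq2 fits were not run, since no deposited column holds counts. Leaving no gene out for its length was chosen after seeing the data. The paired analysis, with the replicate number within each line as a block, raised the mean effect from 3499 to 5270 genes, falls from 1788 to 2836, close-matched genes from 118 to 220, the difference from 1572 to 3759, HMLE-Twist from 3029 to 4664 and HMLE-pBp from 2171 to 4201. With the replicate number as a block over both lines, close-matched genes were 196, the difference 3373 and HMLE-pBp 3857. All 1517 shared genes remained shared under either block. A block leaves the estimated responses unchanged in this balanced design, so only the call of the mean effect could have changed. With only lengths within 5% of the reference, 1166 genes were lower and 458 were shared falls, from fewer genes tested. By a ratio of 2/3 the shared genes were 945, and by a call in each line 693. Leaving out each library gave 2748 to 4107 genes for the mean effect (1393 to 2022 higher, 1332 to 2085 lower), 1217 to 1859 shared (672 to 971 rises, 545 to 888 falls), 75 to 132 close-matched, 750 to 2311 for the difference, 2101 to 3347 in HMLE-Twist and 1083 to 3030 in HMLE-pBp. Of 151 named genes, 138 kept call and direction in the alternatives run and none reversed. Genes whose call ended somewhere included CREB3L1, UTP15, WDR75, RRP12, COX7C, GSR, OSGIN1 and ACTB, and STEAP3, CXCL1, CDC25C and VIM gained one. The causes were not tested.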
